A study of Mus musculus with 22 samples.

Results

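The comparison described here asked which open-chromatin loci of adipocytes change when a high-fat diet stops. Its members were chosen by their labels. They are the 6 short-arm ATAC-seq libraries of the groups H and HC, 3 of each, out of 22 libraries in the series. H animals were 18 weeks old at the end of 12 weeks of high-fat diet. HC animals received the same 12 weeks of high-fat diet, then 8 weeks of chow, and were 26 weeks old. All animals of all groups carried AdipoERCre and NuTRAP on a background labelled C576BL6, and all were given tamoxifen before the diets began. AdipoERCre is a Cre recombinase that tamoxifen activates in adipocytes, and NuTRAP is a reporter that puts a biotin tag on the nuclei of cells with active Cre, so that those nuclei can be pulled from frozen epididymal fat. Only adipocytes present at the time of tamoxifen, and their descendants, are labelled in this model. The control groups C (18 weeks old, low-fat diet, n = 3) and CC_s (26 weeks old, n = 3) are used here as reference. For its last 8 weeks CC_s was moved, like HC, from its first diet to a standard chow. H and HC therefore differ in the end of the high-fat diet, in chow and in age, and these cannot be told apart within the pair, while CC_s and C differ in chow and age alone. The long-arm groups HH (25 weeks of high-fat diet, 31 weeks old, n = 3) and HHC (the same, followed by chow for 8 weeks, 39 weeks old, n = 3) give the same step after a longer diet. Their control groups are CC_l (31 weeks old, low-fat diet, n = 2) and CCC (39 weeks old, n = 2). For its last 8 weeks CCC was moved, like HHC, to a standard chow. CC_l and CCC are used here in the merged regions and in the plot of set medians in all 22 libraries. Each library is described as an individual biological replicate.

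ATAC-seq uses a transposase that inserts into accessible DNA, so promoters, enhancers and other nucleosome-poor stretches collect reads. In white adipocytes, PPARγ and C/EBP factors hold many such elements open, and in obesity the fat depot is known for inflammatory signalling, matrix remodelling and reduced lipid synthesis. Each deposited list gives the peaks of 1 library, with the coverage summed over each peak (the total signal) and its highest value (the maximum signal). Peaks of all 22 libraries were merged into 104657 regions, of which 67860 held a peak in any H or HC library and 16223 in all 6. The log2 total signal of the regions was set to a common scale by rank, on which 14.01 is the floor. A value at the floor means that a region was not among the 30083 strongest of a library, and a difference against a group at the floor is set in part by the floor and gives no fold. A bulk signal cannot tell apart fewer nuclei with an open site from a less open site in each nucleus.

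HC 3 stood apart from the other 5 libraries, so counts and the values that rest on it are given with and without it. Its list held the most peaks (60523, against 41905 to 53080 in the other 5), the shortest covered length (128 Mb, against 195 to 235 Mb) and the lowest median maximum signal (17, against 47 to 78). The Jaccard index of its covered bases with the other 5 was 0.229 to 0.244, while the 10 pairs among those 5 reached 0.516 to 0.577. Of the regions tested, 42.7% lay at the floor in HC 3 and 7.80% to 11.8% in the others. Each of the 20 adipocyte genes listed, such as Adipoq, Plin1 and Fabp4, had a peak at its promoter in all 6 libraries, as did 14711 of all 19704 promoters tested, so this count did not go against the adipocyte label but says little for it. Summed over the list, promoter log2 signal above the floor was 108 to 117 in H, and in HC it was lowest, 92.5, in HC 3. Markers of other cell types were mostly at the floor. Summed over 12 markers each, HC 3 had the highest level of the 6 for macrophages (11.5, H 5.18 to 8.61), endothelial cells (11.9, H 5.70 to 7.99), progenitors (16.4, H 5.57 to 7.09), lymphocytes (2.34, H 0 to 0.703) and epithelial cells (5.79, H 0.059 to 0.302). Lymphocyte sums reached 4.12 in C and 4.47 in CC_s, above HC 3. The other lists stayed below it in both, with at most 10.2 for macrophages and 11.7 for progenitors. For mesothelial markers, HC 3 was the lowest HC library (8.02). The part of such cells in the results below was not tested. Of 5 measures of the peak lists, none separated HC from H (two-sided exact permutation tests, p = 0.5 to 0.9, adjusted p = 0.875 to 0.9).

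**Figure D1:**
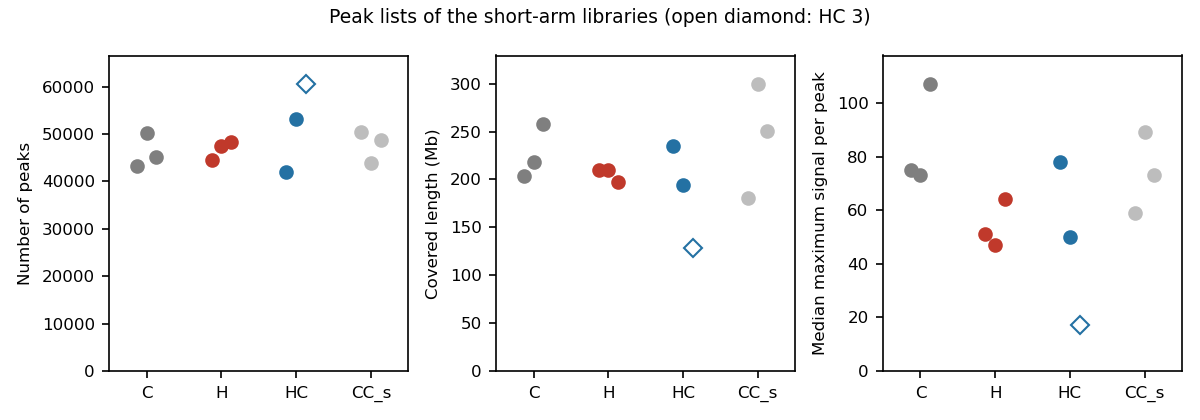
Number of peaks, covered length in Mb and median maximum signal per peak in the 12 short-arm libraries, with 1 point a library and HC 3 as an open diamond. HC 3 has the most peaks, the shortest covered length and the lowest median maximum signal of H and HC, while HC 1 and HC 2 lie near or within the range of the other groups.

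The 300 bases around the signal maximum are shown for the 2 regions of smallest p in each direction, as examples of the windows searched for motifs. None of these regions was called at an adjusted p under 0.05 in the 6 libraries. Capitals mark a match to the C/EBP letters TTGCNNAA or the AP-1 letters TGANTCA on either strand, 2 of the 18 motifs searched. The sequences are from the GRCm38 reference. The first pair was lower in HC and the second pair higher.
Ptprj, chr2:90521976-90522275, plus strand: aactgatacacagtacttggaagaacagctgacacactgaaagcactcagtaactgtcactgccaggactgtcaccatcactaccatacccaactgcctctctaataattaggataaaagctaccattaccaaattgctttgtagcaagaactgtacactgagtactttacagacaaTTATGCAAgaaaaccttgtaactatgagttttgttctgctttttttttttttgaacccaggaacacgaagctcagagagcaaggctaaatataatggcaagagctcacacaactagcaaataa
Itga8, chr2:12325450-12325749, plus strand: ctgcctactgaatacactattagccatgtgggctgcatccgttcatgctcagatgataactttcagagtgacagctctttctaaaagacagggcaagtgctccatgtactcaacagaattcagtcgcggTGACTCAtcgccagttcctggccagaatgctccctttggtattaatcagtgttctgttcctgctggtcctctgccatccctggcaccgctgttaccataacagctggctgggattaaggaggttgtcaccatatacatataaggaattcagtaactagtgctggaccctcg
Thbs2, chr17:14749384-14749683, plus strand: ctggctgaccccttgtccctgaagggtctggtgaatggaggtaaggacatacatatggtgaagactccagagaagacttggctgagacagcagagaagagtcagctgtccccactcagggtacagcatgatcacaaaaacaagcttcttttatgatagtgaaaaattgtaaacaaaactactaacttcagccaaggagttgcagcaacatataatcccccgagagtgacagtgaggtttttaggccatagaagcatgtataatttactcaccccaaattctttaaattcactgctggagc
Ppfibp1, chr6:146928356-146928655, plus strand: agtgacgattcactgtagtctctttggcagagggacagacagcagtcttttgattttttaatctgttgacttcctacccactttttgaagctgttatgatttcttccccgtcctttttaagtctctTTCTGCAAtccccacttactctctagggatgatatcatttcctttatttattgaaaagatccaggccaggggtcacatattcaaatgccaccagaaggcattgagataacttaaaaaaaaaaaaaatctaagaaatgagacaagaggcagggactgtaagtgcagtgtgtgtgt
The Ptprj and Ppfibp1 windows each held a C/EBP match, the Itga8 window held an AP-1 match, and the Thbs2 window held no match to any of the 18 motifs.

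With all 6 libraries, more regions lost signal than gained it when the diet stopped. Without HC 3 this excess shrank or turned round, depending on the threshold. No region passed a correction for multiple testing in the 6 libraries alone. In limma, 0 of 29595 regions tested had an adjusted p under 0.05 with an absolute log2 difference above 1 (0% called). At an unadjusted p under 0.05 of any size, 3547 regions passed (12%), of which 2498 were lower and 1049 higher in HC. Without HC 3, 5247 passed that threshold, and the larger number was then higher (2729) and not lower (2518). At an unadjusted p under 0.01 and an absolute log2 difference above 1, 436 regions were lower in HC (1.47%) and 104 were higher (0.351%). Without HC 3, 1 region was called at an adjusted p (0.00338%), 423 passed the unadjusted threshold as lower (1.43%) and 325 as higher (1.1%). The lower set thus kept 345 of its 436 regions without that library and the higher set 72 of its 104. Of the 325 regions higher without HC 3, 156 lay at the floor in HC 3. When the spread was estimated from all 12 short-arm libraries, 417 lower and 85 higher regions were called at an adjusted p (1.7%), and 414 of these 502 belonged to the 540 regions past the unadjusted threshold (1.82%). With HC 3 left out of that fit, 330 lower and 195 higher regions were called. The floor enters this spread: in 248 of the 502 at least 1 whole group of the 12 libraries lay at the floor, where tied values add no spread, against 13.3% of all regions tested. No group lay at the floor in the other 254.

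**Figure D2:**
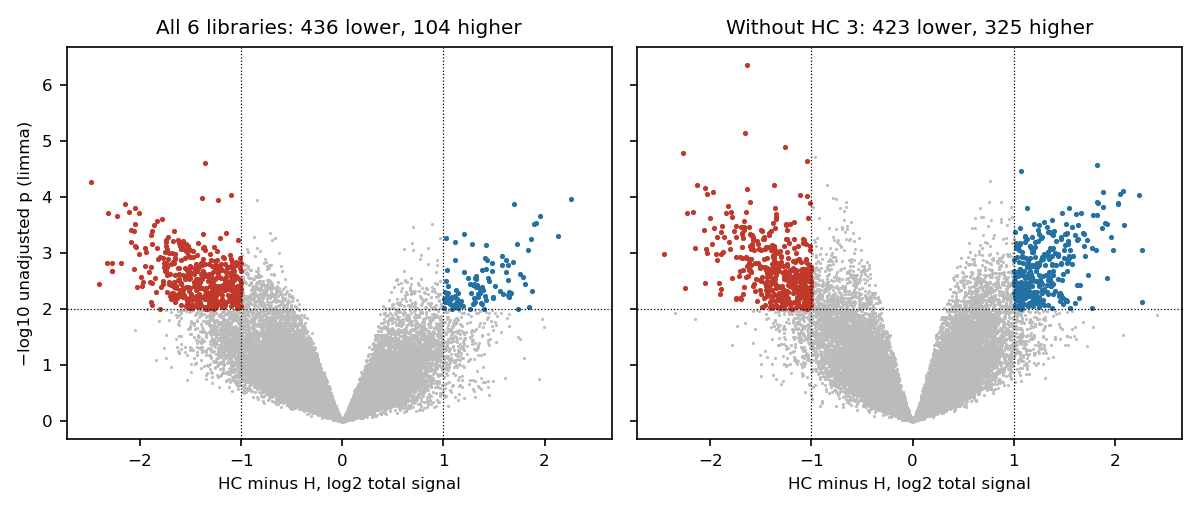
Difference HC minus H in log2 total signal (x axis) against the −log10 of the unadjusted limma p (y axis) for 29595 regions, with all 6 libraries and without HC 3. Dotted lines mark the thresholds, red points are lower in HC and blue points higher, and the count of higher regions grows from 104 to 325 without HC 3 while that of lower regions goes from 436 to 423.

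The region called without HC 3 lies in an intron of Fcgr3, which encodes an activating Fc receptor for IgG of myeloid cells (chr1:171062590-171086781), and overlaps the promoter of the miRNA gene Gm27552. Its log2 total signal was 20.43, 20.39 and 20.54 in H 1 to 3 and 18.82, 18.80 and 20.23 in HC 1 to 3. HC 3 sat near the H libraries, and the other HC libraries near C (17.81 to 18.52) and CC_s (18.05 to 18.78). The difference was −1.64 ± 0.09 (SE, adjusted p = 0.0132 in limma) without HC 3 and −1.17 ± 0.35 with it (adjusted p = 0.297), where it missed the unadjusted p of 0.01.

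In each of the 8 regions described here as lower in HC, every H library lay above all C, CC_s and HC libraries, and the order of H and HC was fixed by the choice. The region of smallest p lies in an intron of Ptprj, a receptor tyrosine phosphatase (chr2:90511845-90548047, 32600 bp from the nearest coding start). Its log2 total signal was 18.21, 18.25 and 18.42 in H and 17.04, 17.02 and 16.77 in HC, and the groups did not overlap. The difference was −1.35 ± 0.16 (SE, adjusted p = 0.267), and −1.27 ± 0.11 without HC 3 (adjusted p = 0.0974). C lay at 14.01 to 16.23 and CC_s at 15.51 to 16.77, so HC was above C here, and the lowest HC library was level with the highest CC_s library.

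The second region lies outside genes, 12734 bp from Itga8, an integrin subunit that binds matrix proteins (chr2:12314656-12328043). H had 16.99, 17.09 and 16.67, and HC had 14.55, 14.74 and the floor in HC 3. C (14.62 to 14.93) and CC_s (14.28 to 15.36) lay near HC, in part above its highest library, and under H. The difference was −2.48 ± 0.32 (SE, adjusted p = 0.267), and −2.27 ± 0.21 without HC 3.

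A pair of the named regions lies close together on chromosome 13. One is near Zfp184, a zinc finger gene (chr13:21930460-21942686), and the other near Prss16, a serine protease gene of the thymus (chr13:21992797-21997780). The Zfp184 region had 17.82, 17.56 and 18.02 in H and 16.28, 16.61 and 16.37 in HC, a difference of −1.38 ± 0.19 (SE). The Prss16 region had 16.00, 16.04 and 16.16 in H and was at the floor in all 3 HC and all 3 C libraries, with 1 CC_s library at 14.08. A region 146626 bp from Lsm8, a subunit of the ring that binds U6 RNA (chr6:18696343-18701953), showed the same on-and-off form. It had 16.09, 16.39 and 16.32 in H, 14.09, 14.38 and the floor in HC, and the floor in all 6 C and CC_s libraries.

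Adamts5 had the strongest signal of the 8 named lower regions. It encodes a secreted protease that cleaves aggrecan and versican, and the region covers its promoter and exons (chr16:85851790-85905318). H had 20.36, 20.24 and 20.14, and HC had 19.27, 19.13 and 18.67, a difference of −1.23 ± 0.18 (SE), or −1.05 ± 0.10 without HC 3. C (19.34 to 19.73) and CC_s (18.98 to 19.57) lay below H. The remaining 2 overlap exons of Zfc3h1, which takes part in nuclear RNA decay, and of Mdm2, the ubiquitin ligase of p53. Zfc3h1 had 16.03 to 16.32 in H and at most 14.14 in HC, and Mdm2 had 16.20 to 17.00 and at most 14.46. All 8 shared an adjusted p of 0.267 in limma. With the spread of all 12 short-arm libraries 6 of the 8 were under 0.05, the exceptions being Ptprj (0.135) and Zfp184 (0.0507), and for Prss16 and Lsm8, with whole groups at the floor, that p rests in part on tied values.

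Of the 8 named regions higher in HC, none had H values as high as any HC value. The region of smallest p lies outside genes, 52770 bp from the start of Thbs2, which encodes the matrix protein thrombospondin 2 (chr17:14747005-14759050). It had 14.48 in H 1, the floor in H 2 and H 3, and 16.44, 16.37 and 16.49 in HC, a difference of 2.27 ± 0.32 (SE, adjusted p = 0.267), or 2.24 ± 0.28 without HC 3. C (15.66 to 15.90) and CC_s (15.22 to 15.85) were above H and below HC.

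The intronic region of Ppfibp1, a liprin of cell adhesion sites (chr6:146924470-146938470), had 15.44, 15.36 and 15.11 in H and 16.71, 17.12 and 17.17 in HC, a difference of 1.70 ± 0.25 (SE). C reached 15.75 to 16.55 and CC_s 16.26 to 16.34. In 3 of the 8, all H libraries were at the floor. These were the promoter region of Slc16a6, a monocarboxylate transporter (15.82, 15.97 and 16.11 in HC), a region 66746 bp from Btg1, an antiproliferative gene (15.68, 16.00 and 16.11), and an exonic region of Vwf (16.44, 15.52 and 16.49). Vwf, von Willebrand factor, is also on the endothelial marker list, and the region had 15.46 to 16.53 in C and 15.09 to 15.93 in CC_s. The promoter region of Dlx1, a homeobox gene, had at most 14.20 in H and 15.83 to 16.10 in HC. A region 41955 bp from Zfp648 (15.58 to 15.80 in H, 16.82 to 16.91 in HC) and the promoter region of Hoxd3 (16.39 to 16.90 in H, 17.63 to 17.76 in HC) had signal in both groups. At Hoxd3, C (16.68 to 16.99) and CC_s (16.54 to 17.19) lay with H and under HC. With the spread of all 12 short-arm libraries, all 8 had an adjusted p between 0.00079 and 0.0225 in limma. For Slc16a6, Btg1 and Vwf, with H at the floor, that p rests in part on tied values. These 3 passed the filter through HC alone.

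**Figure D3:**
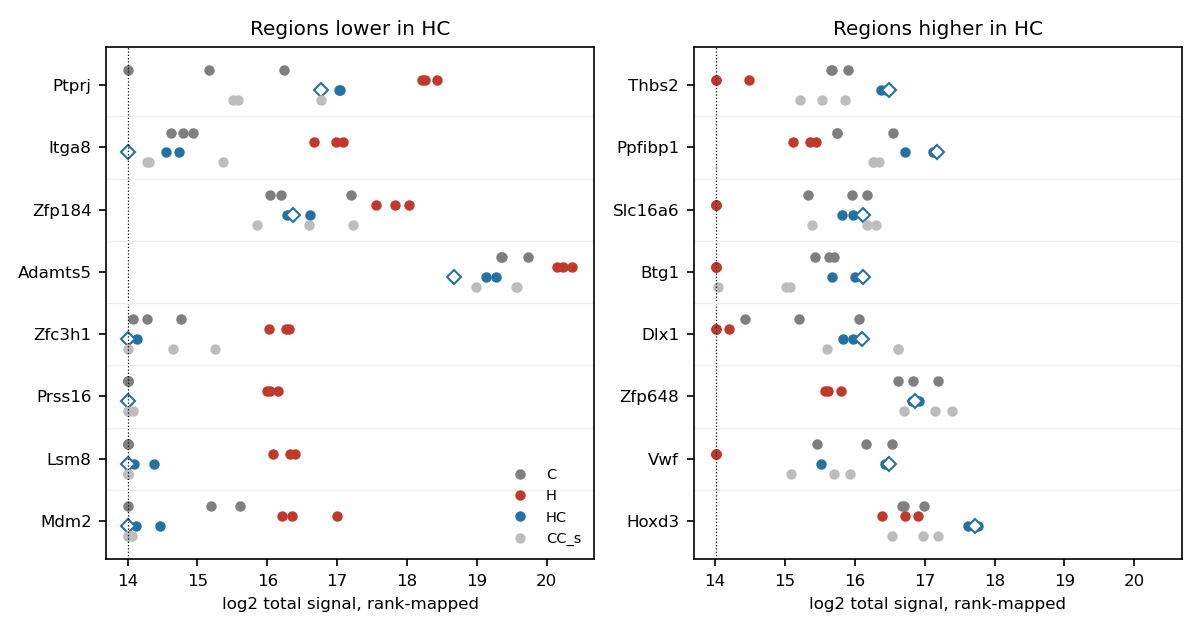
Rank-mapped log2 total signal of the 16 named regions in C, H, HC and CC_s, with 1 point a library, HC 3 as an open diamond and the floor as a dotted line. H and HC do not overlap at any of the 16, and the mean of C is nearer to HC than to H at all but Ppfibp1 and Hoxd3.

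Over the whole sets, the control libraries lay with HC rather than with H. The median log2 total signal of the 436 lower regions was 15.58 to 15.90 in the H libraries and 14.01 to 14.27 in the HC libraries, the values that chose them, and 14.01 to 14.28 in both C and CC_s. For the 104 higher regions, the medians were 14.32 to 14.51 in H, 15.83 to 16.27 in HC, 15.65 to 15.80 in C and 15.63 to 15.98 in CC_s. The mean of CC_s was nearer to that of HC than of H in 385 of the 436 regions with less signal in HC (88.3%) and in 81 of the 104 with more (77.9%), against 59.1% of all regions tested. Because H and HC values chose the regions, these shares are a description. The filter also bears on them: 89 of the 436 were at the floor in all HC libraries and 11 of the 104 in all H libraries, and so passed through 1 group alone.

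**Figure D4:**
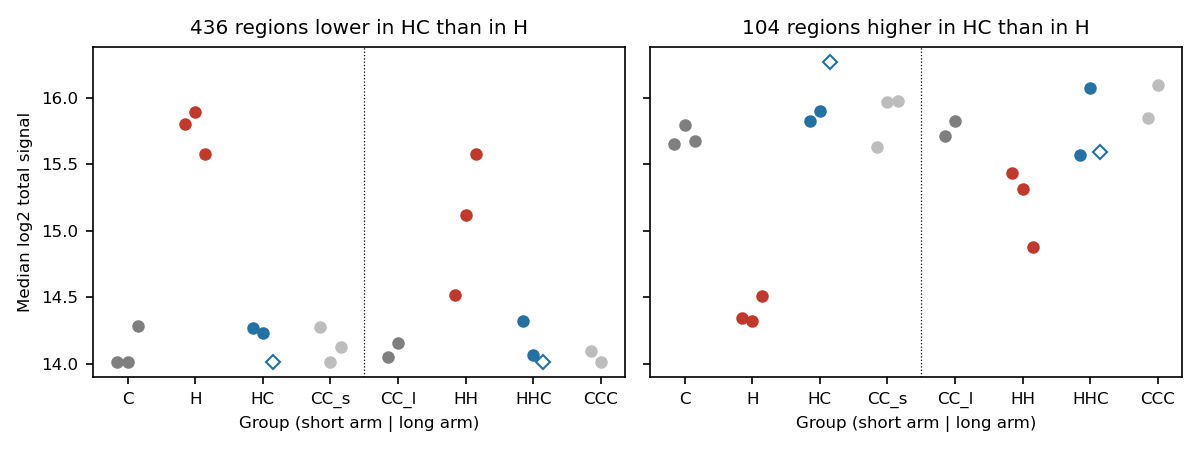
Median log2 total signal of the 436 lower and the 104 higher regions in each of the 22 libraries, with HC 3 and HHC 3 as open diamonds. H stands alone in the short arm, and HH lies between H and its control CC_l, except that HH 3 is level with H 3 in the lower regions. HC and HHC lie near or among the control groups C, CC_s, CC_l and CCC.

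Signal above the floor in H alone was more frequent than signal above it in any other single short-arm group. A region at the floor can still hold a weaker peak, as in 1 C library at Prss16. Of all 104657 regions, 448 were above the floor in all 3 H libraries and in none of the 9 others. The same form was found for 50 regions in C, 60 in CC_s and 12 in HC. Without HC 3 the counts were 496, 55, 64 and 130. The opposite form, at the floor in all 3 libraries of a group and above it in all 9 others, was found for 60 regions in H, 13 in C, 4 in CC_s and 30 in HC, and without HC 3 for 277, 48, 10 and 38. Among the 448, named here after their values were seen, are regions assigned to Setmar, Igf2bp3 and Klf4 and 1 at the promoter of the T cell surface gene Cd6. The long-arm libraries took no part in this choice. Above the floor in all 3 HH libraries were 69 of the 448 (15.4%), against 80.2% of all regions above the floor in all 3 H libraries. Above it in none of the 3 HHC libraries were 351 (78.3%), against 6.13%. Of the 50 regions of this form in C and the 60 in CC_s, 0 were above the floor in all 3 HH libraries, and 56.0% and 66.7% were above it in none of the HHC libraries.

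Presence and absence of peaks gave the same imbalance. A peak was present in every H and no HC library in 739 regions (1.09%) and in every HC and no H library in 232 (0.342%). Without HC 3 these numbers were 907 and 1027, so the excess of lost over gained regions was not found in that setting. Of the 739, 66.6% had no peak in any C library and 67.4% none in any HHC library, against 46.7% and 44.8% of all 67860 regions with a peak in these libraries, and 16.4% had a peak in all 3 HH libraries, against 33.1%. Of the 232, 45.7% had a peak in all 3 C and 46.1% in all 3 CC_s libraries, against 36.2% and 38.8%, and 21.1% had one in all 3 HHC and 10.8% in all 3 HH libraries, against 24.4% and 33.1%. Promoters made up 14.9% of the 739 and 36.2% of the 232, against 28.6% of all. Between C and CC_s, which differ in age and chow, 326 regions were present in every CC_s and no C library and 133 the reverse.

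The difference between HC and H was also tested against the difference between CC_s and C, which share the step in age and chow. In limma, 84 regions were called (0.228% of 36781), of which 77 had a lower and 7 a higher change in the diet pair. Without HC 3, 102 were called, 65 with a lower and 37 with a higher change, and 58 were in both. In 76 of the 77, HC minus H was below 0, with a median of −1.42 beside 0 in the control pair. These calls lean on the floor, since in 72 of the 84 at least 1 whole group had no spread there, against 27.5% of the regions tested, and their adjusted p is not given singly for that reason. Prss16 and Lsm8 were among them, and so was a region 26980 bp from Fcgr1, a high-affinity Fc receptor gene, with 15.65, 15.97 and 15.81 in H, at most 14.22 in HC and at most 14.02 in C and CC_s. The call can also rest on the control pair. Near Sept8, a septin gene, H (16.43 to 16.52) and HC (16.10 to 16.46) overlapped, and C (14.01 to 14.08) lay under CC_s (15.92 to 16.14).

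The 7 with a higher change were assigned to Kit, Thbs2, Plxna2, Btg1, Rassf4, Abat and Snap25. In an intron of Kit, the receptor of stem cell factor, H had 14.01, 14.22 and 14.01 and HC had 15.82, 15.68 and 16.35, while C (16.32 to 16.57) was above CC_s (15.49 to 15.91). A region near Abat, the enzyme that breaks down GABA, was high in HC alone, with 15.50, 15.51 and 15.35 in HC and at most 14.24 in the 9 others.

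The lower and higher sets differed in position. Promoters were overlapped by 25.5% of the 436 lower regions, 60.6% of the 104 higher regions and 45.8% of all tested. The median distance to a coding start was 33975 bp, 994.5 bp and 16266 bp in that order, and the median GC content of the 300-bp windows was 46.2%, 53.7% and 50.7%. Without HC 3 the lower set kept these features (26.7% at promoters, GC 46.3%), and the higher set was near all tested regions (43.7% and 50.3%). In that higher set, the median signal was 15.72 and 15.70 in HC 1 and HC 2 and 14.16 in HC 3.

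Motif letters at the maxima were counted on both strands. C/EBP letters (TTGCNNAA) were found in 31.7% of lower regions, 22.1% of higher regions and 22.7% of all tested, and outside promoters in 34.8% of lower and 28.9% of tested. Higher regions outside promoters held them in 31.7% (13 regions). Without HC 3 they were in 31.4% of lower and 21.5% of higher regions. MEF2 letters were found in 8.72% of lower and 4.11% of tested regions, and outside promoters in 9.85% and 4.96%, and in 7.57% of lower regions without HC 3. AP-1 letters (TGANTCA) were in 14.2% and 10.6%, and outside promoters in 15.1% of lower, 17.1% of higher and 13.5% of tested regions. KLF or SP letters (GGGCGGGGC) were in 2.75% of lower, 1.92% of higher and 7.10% of tested regions, and outside promoters in 0.615% of lower and 0.761% of tested. The ETS letters CCGGAAGT were in 0.459% of lower, 0% of higher and 2.86% of tested regions, and the clock E-box CACGTG in 2.98%, 8.65% and 6.08%. Without HC 3 the E-box was in 4.62% of higher regions, under the share of all tested. Outside promoters it was in 2.44% of higher and 4.08% of tested regions. For NF-κB the shares were 6.42% and 4.79%, for TEAD (ACATTCC) 6.65% and 5.82%, and for the glucocorticoid receptor (ACANNNTGT) 9.17% and 9.32%. The other 9 motifs (PPAR, NFI, PU.1 with GAGGAAGT, CTCF, NRF1, SREBP with TCACNCCAC, estrogen-related receptor with TCAAGGTCA, RUNX with TGTGGTTA, and EBF) were in 2.06% or fewer of the lower regions. The sets also differed in GC content, as given above, and its part in these shares was not tested. The letters describe the windows and do not show binding.

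Genes of lipid metabolism, insulin signalling, inflammation and matrix were looked up at their promoters and at the regions nearest to them. Over 8 lists with 157 genes, 140 promoters were tested and 3 passed the unadjusted threshold, all lower in HC, against 322 of all 19704 promoters (1.63%). Without HC 3, 8 passed, 4 lower and 4 higher, against 1.08% and 1.2% of all promoters. Among the regions of the lists, those of Grb14 are described first. Grb14 is an adaptor that binds the insulin receptor and dampens its signal. Of 82 regions tested for the insulin signalling list, 3 passed the unadjusted threshold as lower and 0 as higher, against 1.47% and 0.351% of all regions tested. All 3 were assigned to Grb14, so they share a locus, and they are not 3 independent counts. They also passed without HC 3, where 1 region of Irs2, an insulin receptor substrate, passed as higher (1.25 ± 0.20, SE). The one nearest its start, 6607 bp away in an intron (chr2:65002259-65016175), had 16.72, 16.90 and 16.66 in H and 15.42, 15.67 and 14.78 in HC. Its difference was −1.47 ± 0.30 (SE, adjusted p = 0.267 in limma), with C at 14.01 to 15.16 and CC_s at 14.27 to 15.80. The other 2 changed by −1.68 ± 0.44 and −1.42 ± 0.38 (SE). In the long arm, HH (15.26 to 16.80) and HHC (15.10 to 16.35) overlapped at the first of these.

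Of 20 promoters of adipocyte identity genes tested, 4 were lower in HC and 0 higher at an unadjusted p under 0.05, against 942 lower and 563 higher of all 19704. At the unadjusted threshold 1 passed, the median difference was −0.08, and it was 0.07 without HC 3, beside 0.01 and −0.02 for all promoters. The one was Pparg, the master regulator of adipocyte genes, with promoter log2 signal of 20.22, 20.38 and 20.52 in H and 18.38, 18.82 and 18.24 in HC (−1.89 ± 0.23, SE, adjusted p = 0.0898). C (20.58 to 21.14) and CC_s (20.96 to 22.50) lay above H. Promoter signal here counts whole peaks that touch the window of 2000 bp on each side of a start, and the strongest region over the Pparg promoter changed by −0.61 and the signal within the window by −0.42. At regions, 1 of 18 passed, over Npr3, the clearance receptor of natriuretic peptides, with 21.09, 21.14 and 21.14 in H and 20.47, 20.46 and 19.35 in HC. Its difference of −1.03 ± 0.29 (SE) became −0.66 without HC 3, under the fold threshold. At promoters without HC 3, Cebpa, an adipogenic factor (1.08 ± 0.15), passed as higher, and Lep, the leptin gene (−1.02 ± 0.17), as lower, beside Pparg (−1.77 ± 0.20).

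In fatty acid and triglyceride synthesis, 0 of 20 promoters and 0 of 19 regions passed. The member of smallest p was Srebf1, a regulator of lipogenic genes, with 17.10, 17.58 and 17.37 in H, 19.05, 19.23 and 17.80 in HC, and 19.01 to 20.04 in C and CC_s. Its difference was 1.35 ± 0.42 (SE, adjusted p = 0.563). Without HC 3 it was 1.79 ± 0.22 and passed the unadjusted threshold (adjusted p = 0.0981), as did Acaca, an acetyl-CoA carboxylase (1.80 ± 0.43), and a region of Scd1, a fatty acid desaturase (1.05 ± 0.21). The region over the Srebf1 promoter changed by −0.03 and the signal within its window by 0.07. In fatty acid oxidation and thermogenesis, 0 of 16 promoters passed, with Acadvl, a mitochondrial acyl-CoA dehydrogenase, at 1.88 ± 0.63 (adjusted p = 0.598). Without HC 3, Acadvl passed the unadjusted threshold (2.53 ± 0.43, adjusted p = 0.176), while the region over it changed by 0.11 with all 6 libraries. Of 59 regions, 1 in an intron of the brown-fat regulator Prdm16 was lower (15.85, 15.22 and 15.05 in H, at most 14.27 in HC) and 1 lying 36240 bp from the coactivator Ppargc1b was higher (14.54, 15.12 and 15.19 in H, 16.30, 16.44 and 16.27 in HC). At Ppargc1b, C and CC_s lay at 16.13 to 17.15. Both passed without HC 3, as did a region of Cpt2, a mitochondrial carnitine transferase (1.19 ± 0.33). In insulin signalling, 0 of 16 promoters passed, and Foxo1 had the smallest p (−1.28 ± 0.60, adjusted p = 0.679).

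Inflammatory genes showed 1 promoter past the unadjusted threshold of 19 tested and 0 of 43 regions. This was Ccl2, the chemokine that draws monocytes, with 16.64, 16.59 and 16.34 in H and 15.30, 15.30 and 14.44 in HC. The difference was −1.51 ± 0.31 (SE, adjusted p = 0.324). The region over it changed by −1.10 and the signal within its window by −0.53 ± 0.35. C (15.08 to 15.98) reached into the range of HC, while CC_s (15.97 to 16.03) lay between H and HC. In the lysosome and macrophage list, 0 of 14 promoters and 0 of 26 regions passed, and none did without HC 3. Npc2, a lysosomal cholesterol carrier, had the smallest p (−0.71 ± 0.28), but the signal within its window changed by 0.88 ± 0.16 and the region over it by 0.09, the other way. Among AP-1 and early response genes, 0 of 16 promoters passed, and Atf3 (1.09 ± 0.60) was led by HC 3, whose 18.94 compared with 16.65 and 17.10 in HC 1 and HC 2. Of 48 regions there, 1 lying 309081 bp from Klf4 was lower (15.10 to 15.65 in H), at the floor in every C, CC_s and HC library, and 1 lying 222648 bp from Jun was higher (14.43 to 16.77 in H, 17.30 to 17.48 in HC). Without HC 3 the Jun region missed the unadjusted p, with a difference as large (1.79, against 1.74 with it).

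In the extracellular matrix and TGF-β list, 1 of 19 promoters passed. It was Col4a1, a basement membrane collagen that shares its start with Col4a2, with 21.53, 21.53 and 22.09 in H and 19.37, 18.73 and 18.29 in HC (−2.92 ± 0.33, SE, adjusted p = 0.078). C ran from 17.55 to 21.84, the region over it changed by −0.59 and the signal within the window by −0.18. Summed over the list, promoter log2 signal was 47.0 to 49.5 in H and 42.0 to 43.9 in HC, with C at 41.8 to 45.7 and CC_s at 40.5 to 47.4. H and HC did not overlap, yet the median difference of the 19 members was 0.08 (−0.10 without HC 3), with 11 above 0 and 8 below. At an unadjusted p under 0.05, 5 of the 19 were lower and 0 higher, against 942 and 563 of all 19704 promoters. Of 103 regions, 1 lying 29549 bp from Col6a3 was lower and 1 lying 143564 bp from Tgfbr2, a TGF-β receptor, was higher (15.96 to 16.28 in H, 16.87 to 17.57 in HC), and the latter missed the fold threshold without HC 3. Regions of Thbs1 (1.44 ± 0.27) and Col1a1 (1.39 ± 0.32) passed as higher without HC 3 and not with it.

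Among marker lists, 0 promoters passed of 5 tested for macrophages, 3 for endothelial cells, 8 for progenitors, 1 for mesothelial cells, 2 for lymphocytes and 2 for epithelial cells. The members of smallest p were Spi1 (0.57 ± 0.83), Egfl7 (−0.66 ± 0.20), Twist2 (0.86 ± 0.26), Cldn15 (0.87 ± 0.49), Lck (0.40 ± 0.24) and Elf3 (0.72 ± 0.64). The Twist2 promoter was at the floor in all H libraries. The summed mesothelial level was 8.02 to 11.2 in HC and 1.49 to 3.19 in H, without overlap, and 3.41 to 6.98 in C and 4.78 to 8.52 in CC_s. It rested on a few genes: Upk3b had 19.30 and 19.44 in HC 1 and HC 2 and the floor of 14.19 in the other 4, and Msln and Upk1b were at the floor in all 6. At regions, 2 assigned to the macrophage marker Fcgr1 (26980 and 44488 bp from its start) were lower and 1 in the endothelial marker Vwf was higher. Without HC 3 the Vwf region and 1 of the Fcgr1 regions passed, the other Fcgr1 region missed the unadjusted p with the same difference (−1.33), and regions of Twist2 (2), Cd2 (1) and Esrp1 (1) and the Twist2 promoter passed as higher. The part of such cells in these values was not tested.

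Of 9 genes that the study's text names and Adipoq, 8 promoters were tested and 0 passed. Gpam (−1.15 ± 0.70) had 19.06, 17.85 and 19.34 in H and 18.73, 17.80 and 16.27 in HC, and its difference was −0.49 without HC 3. Cyp2e1 (0.32 ± 0.73), Acacb (−0.02 ± 0.74), Lyz2 (0.18 ± 0.47), Maob (0.14 ± 0.27), Ctsd (0.26 ± 0.43), Runx2 (0.29 ± 0.35) and Adipoq (−0.46 ± 0.81) differed by less than 1 SE from 0. Without HC 3, Adipoq was at 0.53 ± 0.23, Acacb at 0.64 ± 0.62, Lyz2 at −0.32 ± 0.27, Ctsd at −0.21 ± 0.18 and Runx2 at −0.03 ± 0.24, each with the other sign, and none passed. Icam1 was above the floor in 1 H and 1 HC library, and Tyrobp in HC 3 alone, so neither was tested.

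Across all promoters, 17 of 19704 were called at an adjusted p (0.0863%), 16 lower and 1 higher in HC, and 35 without HC 3 (0.178%), 17 lower and 18 higher, with 14 in both. Against the control pair, 20 promoters differed in their change (0.0913%), and between the arms 3 did (0.0136%). At the unadjusted threshold, 229 promoters were lower (1.16%) and 93 higher (0.472%), and without HC 3 these counts were 213 (1.08%) and 236 (1.2%). Since promoter signal counts whole peaks, it depends on whether a broad peak reaches into the window. At all 17, the strongest region over the promoter changed by less than 1 on the log2 scale. When only the signal inside the window was used, 0 promoters were called, 1422 had an unadjusted p under 0.05, and 6 of the 17 passed the unadjusted threshold. In the median scaling, in the replicate-blocked fit and without any of H 1, H 2, H 3 or HC 2, 0 were called.

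Of the 17, 8 were at the floor in all HC libraries and 1 in all H libraries, so these passed the filter through 1 group alone and their SE rests on the spread of that group. Of the 17, 5 are protein-coding. Aipl1, a photoreceptor chaperone gene, had 17.97, 18.48 and 18.08 in H and the floor in HC (−3.99 ± 0.24, SE, adjusted p = 0.0072 in limma), and within its window the change was −2.73. Ifitm5, a bone gene, had 17.13, 17.41 and 16.74 in H and at most 14.39 in HC, with −2.24 within the window. Ldhc, a testis lactate dehydrogenase (−4.04 ± 0.35), and Lrrc47 (−2.68 ± 0.25) changed by −1.55 and −0.46 within their windows. At Ldhc, C and CC_s (17.96 to 19.22) lay with H. At Lrrc47, C (17.76 to 18.28) lay near H (18.24 to 18.50), and CC_s (15.55 to 15.94) near HC (15.43 to 15.88), so the control pair differed in the same way. The higher one was Hist1h4b, a histone gene, at the floor in H and at 16.63, 16.78 and 16.21 in HC. Next by p among coding promoters were Col4a2 and Col4a1 as lower, and Rapgef1 (2.33 ± 0.33), Onecut2 (1.38 ± 0.22), Lrrc30 (1.24 ± 0.21), Tcam1 (3.16 ± 0.54) and Hoxa10 (1.36 ± 0.23) as higher. None of these 7 was under an adjusted p of 0.05, although Tcam1 reached 0.035 without HC 3. Onecut2, Lrrc30 and Hoxa10 were at the floor in all H libraries. They passed the filter through HC alone, and their differences give no fold.

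The same step after the longer diet shares no library with HC and H. In HHC minus HH, 0 of 28997 regions were called at an adjusted p, 1691 had an unadjusted p under 0.05, and at the unadjusted threshold 234 passed (0.807%), of which 197 were lower (0.679%) and 37 higher (0.128%). Without HHC 3, the long-arm library with the lowest median maximum signal, 160 were lower and 143 higher. At an unadjusted p under 0.05, 1046 were then lower and 1145 higher. Of the 436 regions lower in HC, 355 were tested in the long arm. HHC was below HH in 314 of them (88.5%), against 59.1% of the 26109 regions tested in both, with a median difference of −0.66 against −0.09. Of the 104 higher regions, 98 were tested and HHC was above HH in 81 (82.7%), against 40.9%, with a median of 0.43. At the unadjusted threshold, 39 of the 355 were lower in HHC, where 0.739% of the regions tested in both were, and 2 of the 98 were higher, where 0.107% were. Without HHC 3, the shares were 85.1% and 86.7%, against 48.0% and 52.0%. The filter bears on these shares: a region at the floor in all 3 HHC libraries was tested only through HH, which fixed its sign. The same holds for HH and the higher set. Of the 436 lower regions, 41.7%, 47.0% and 71.6% were at the floor in HHC 1 to 3. Of all 29595 tested in the short arm, 17.4%, 16.5% and 46.7% were. How many of the 355 and 98 passed in this way was not counted. The arms coincide with separate series of libraries. A test of the difference between the arms called 0 of 36532 regions (0%) in limma, with 998 at an unadjusted p under 0.05 and 92 at the unadjusted threshold (0.252%).

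Of the 8 named lower regions, 7 were tested in the long arm and all were below 0 there. They included Zfp184 (17.23, 17.16 and 17.94 in HH, 15.35, 14.90 and 15.96 in HHC, a difference of −2.04 ± 0.37, SE), Lsm8 (15.23, 15.42 and 16.13 in HH and the floor in HHC) and Ptprj (−1.35 ± 0.38). Lsm8 passed the long-arm filter through HH alone, so its sign there was fixed. Adamts5 differed by −0.46 ± 0.16 and Mdm2 by −0.49 ± 0.37. Of the 8 named higher regions, 6 were above 0, and most errors were large. Btg1 had 14.34, 15.55 and 14.25 in HH and 16.03, 16.12 and 15.51 in HHC (1.17 ± 0.50), with HHC 3 just below HH 2, and Thbs2 (0.27 ± 0.75), Ppfibp1 (−0.43 ± 0.55) and Hoxd3 (−0.14 ± 0.37) overlapped between HH and HHC as well. Some of these values rest on HHC 3: without it Ppfibp1 was at 0.25 ± 0.26, with the other sign, and Thbs2 at 0.73 ± 0.78, and 7 of the 8 were above 0.

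The step in age and chow without a high-fat diet, CC_s minus C, likewise shares no library with HC and H. In limma it called 0 of 30390 regions, with 2374 at an unadjusted p under 0.05 and 187 at the unadjusted threshold (0.615%). Of the lower regions, 239 were tested in it and 98 were below 0 (41.0%), against 53.5% of all, with a median of 0.09. The higher regions were all tested, and 56 of the 104 were above 0 (53.8%), against 46.5% of all, with a median of 0.03.

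**Figure D5:**
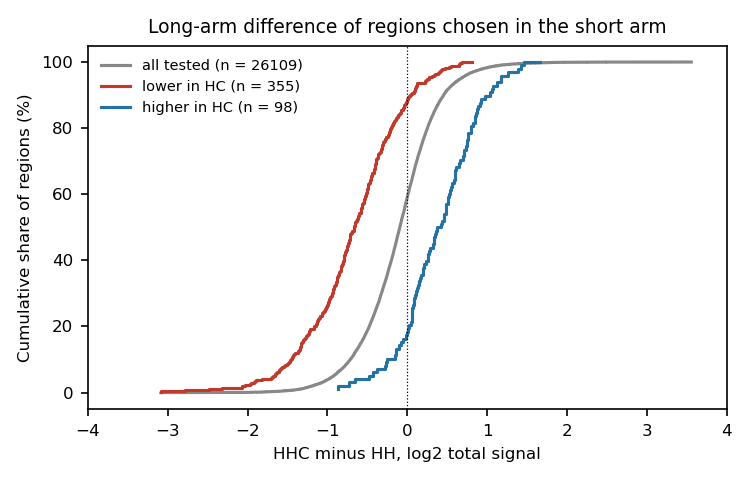
Cumulative share of regions (y axis, percent) by their difference HHC minus HH in log2 total signal (x axis), for all 26109 regions tested in both arms, the 355 lower and the 98 higher in HC. The lower set lies to the left of all regions, with 88.5% below 0, and the higher set to the right, with 82.7% above 0. Regions at the floor in all HH or all HHC libraries passed the filter through the other group alone, with the sign fixed.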

How the data were processed

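ATAC-seq peak lists of 22 libraries were used, 1 library per animal. Per the labels and the study's methods, the authors trimmed reads (Trim Galore 0.6.6), aligned them to GRCm38 (Bowtie2 2.4.4, SAMtools 1.13), made coverage (bedtools 2.30) and called peaks in each library with SEACR 1.3, stringent mode, threshold 0.01; the tool versions are from the submitters' processing notes. The deposited values are coverage signal, summed (total signal) or highest (maximum signal) over each peak, with no normalization stated, and no read counts, so depth is unknown. The study's count test could therefore not be used. Blacklisted regions were removed by the authors, and whether before or after these lists is not given in the sources used here.

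Overlapping peaks (1 bp or more) of all libraries were merged, and log2 total signal was rank-mapped over the 30083 strongest regions of each library (promoters, 2000 bp on each side of GENCODE vM21 starts, 19432). Features above the floor in at least 3 of the 6 libraries were tested in limma 3.58.1 (R 4.3.3; lmFit, eBayes with trend) with Benjamini-Hochberg adjustment over all features tested. The code was tested on simulated data. Measures of the libraries were tested by exact permutation (two-sided), which cannot go below p = 0.1 for 3 against 3. Named regions were the 8 lower and 8 higher of smallest p, and promoters the 6 lower and 6 higher coding ones, that passed an unadjusted p under 0.01 and an absolute log2 difference above 1 with and without HC 3. Each takes the coding gene it overlaps most, or the nearest start. From each list up to 3 members past that threshold were named, otherwise the tested member of smallest p. Further genes were named after their values were seen where stated, in the lists of regions, and where list members passed without HC 3. The members, lists and motifs were chosen with earlier results of these data known. Alternatives were other signals, scalings, filters, models and unions, a replicate block and leaving out each library. Python 3.11.15, numpy 2.4.6, pandas 2.3.3, scipy 1.17.1 and matplotlib 3.10.9 were used.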

Additional observations from a re-analysis of the deposited data

Results flagged for a closer look

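A test of the difference between contrasts called 84 regions and 20 promoters whose change from H to HC differed from the change from C to CC_s (limma, adjusted p under 0.05 and an absolute difference above 1 on the log2 scale). The regions are described in the report. In 72 of the regions and 17 of the promoters at least 1 whole group lay at the floor and had no spread, so their p rests in part on tied values. The count of promoters was 6 without a trend in the model and 28 without HC 3, of which 22 had a lower and 6 a higher change. With all libraries, all 20 had a lower change in the diet pair, and most belong to pseudogenes and non-coding genes. The coding ones were Prm3 (−2.73), Sftpa1 (−1.51), Ldhc (−3.97) and Arl14epl (−2.32). At Prm3, all H, HC and C libraries were at the floor of 14.19 and CC_s was at 16.57 to 17.12, so the value came from the control pair. Sftpa1 had 15.65, 15.69 and 15.76 in H and the floor in all other short-arm libraries.

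Between the arms, 3 promoters differed in their change after the diet stopped: 4933436P19Rik, Ifitm5 and Gm37308. For Ifitm5 the difference was −5.72 ± 0.56 (SE, adjusted p = 0.0087 in limma). Its promoter fell to at most 14.39 in HC from 16.74 to 17.41 in H, and it was at most 14.48 in HH and 16.61 to 18.20 in HHC. The strongest region over it changed by −0.10 from H to HC.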

How the results depend on the processing

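The count of regions called at an adjusted p, 0 in the 6 libraries, was 0 to 1 when single libraries were left out, 1 with the maximum signal, 1 without HC 3 with a filter of 2 of 5 libraries, 502 with the spread of all 12 short-arm libraries and 525 with that spread without HC 3. Regions higher at the unadjusted threshold (104) numbered 35 (without H 2) to 325 (without HC 3), 202 with all 12, 346 without HC 3 with the filter of 2 of 5, and 373 with all 12 without HC 3. Regions lower (436) numbered 271 to 423 with single libraries left out, 738 with the maximum signal, 268 without a filter and 757 with all 12. Promoters called (17) numbered 0 (without H 1, H 2, H 3 or HC 2) to 35 (without HC 3), 7 with the maximum signal, 0 in the median scaling, 4 without a filter, 0 within the promoter window with or without HC 3, 56 with all 12 and 58 with all 12 without HC 3. Promoters higher (93) numbered 51 to 236 with single libraries left out, 58 with the maximum signal and 200 with all 12 without HC 3, and promoters lower (229) numbered 168 to 338, and 141 within the window. Differences between the arms (92) numbered 171 without HC 3 and 144 without a trend, and differences from the control pair (84) numbered 134 without a trend. Peaks gained (232) numbered 319 to 1027 with single libraries left out, 89 among the 10000 strongest peaks and 51 where peaks had to cover 50% of a region; peaks lost (739) numbered 907 to 1506, and 181 among the strongest. List members past the unadjusted threshold (3) numbered 2 to 8 with single libraries left out, 0 with the maximum signal and 1 within the window, with or without HC 3. HC minus H in covered length was −44.2 to 9.15 Mb with single libraries left out, in promoter share −3.13 to 0.712 points, and 2.37 points among the 10000 strongest peaks, and in the ratio of median to lowest maximum signal −1.06 to 0.975, with 0.16 without H 3; the sign turned in these. The causes were not tested.

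Samples with the same replicate number did not deviate together (correlations of −0.0991, −0.0765 and −0.211). With 3 libraries per group and HC 3 apart from the others, this cannot exclude that the numbers pair samples. With the replicate number as a block, 0 regions and 0 promoters were called, and 66 regions and 54 promoters were higher at the unadjusted threshold. The 28 named regions and promoters kept their direction in every alternative in which they were fitted, and lost their call most often with the maximum signal (19 of 28). Without HC 3, HC rests on 2 libraries. The settings that leave out HC 3 together with a second choice, and the signal within the window, were chosen after seeing the data. Depth is unknown, so a region at the floor is not shown to be closed.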

Other observations

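Among the 10000 peaks of highest total signal in each library, the share at promoters was higher in HC than in H by 2.37 percentage points (two-sided exact permutation test, p = 0.1, the smallest that 3 against 3 allows), and the value was not tested further.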
